A study of Mus musculus with 44 samples.

Results

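The T cell receptor β chains described here carry the CDR3 start that the mouse genes Trbv13-1 and Trbv13-3 encode, cysteine, alanine, serine, serine and aspartate (CASSD). A CDR3 was counted in this class if it began with CASSD and ended in the germline residues of 1 of 12 Trbj genes, which also identify it as a TRB CDR3. Of 72765 distinct TRB CDR3s found by those endings, 4534 belonged to the class, which is 6.23%. Counted once per tumour in which they occurred, they made up 5848 of 95913 TRB entries and 4.46% of the TRB reads. In the deposited table TRB endings held 56.1% of the 170818 entries and 70.2% of the reads of both chains.

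The study profiled the TCR repertoire of B16F10 melanomas, grown under the skin of wild-type C57BL/6 mice (C57BL/6J in the study's methods), to ask how treatment with AC484 changes it. AC484 is a small molecule that blocks the catalytic site of 2 related tyrosine phosphatases, PTPN2 and PTPN1, and the other treated mice received aPD-1, an antibody against the checkpoint receptor PD-1. There were 14 Vehicle, 15 aPD-1 and 15 AC484 tumours, each sampled once on day 12 as 100 μg of bulk tissue; the labels call the control Vehicle, whereas the study's methods speak of no treatment. The tissue was not sorted, so T cell number and TCR RNA per cell cannot be told apart, and the class cannot be assigned to CD4+ or CD8+ cells.

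A TCR β chain is assembled in the thymus by joining a V, a D and a J gene segment. The CDR3 is the loop that spans this junction and contacts the peptide on the MHC molecule. Its first residues come from the V gene and its last from the J gene, while nibbled segment ends, the D segment and added bases make up the middle. Trbv13 genes encode the Vβ8 chains of the older nomenclature, which are common in C57BL/6 T cells.

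The germline V gene ends below show how the class arises and why it is not exclusive to its genes. They were read from RefSeq chromosome 6 of build GRCm38, plus strand, and each is the 3′ end of the V coding region. Capitals mark the CDR3 part, from the conserved cysteine codon onwards, and the final G is the first base of the next codon.
Trbv13-1, chr6:41116444-41116468: ttgtacttcTGTGCCAGCAGTGATG
Trbv13-3, chr6:41130561-41130585: gtatatttcTGTGCCAGCAGTGATG
Trbv13-2, chr6:41121808-41121832: gtgtacttcTGTGCCAGCGGTGATG
The CDR3 parts of Trbv13-1 and Trbv13-3 are identical, so a CDR3 cannot be traced to either gene. Trbv13-2, which lies between them, differs in the fourth CDR3 codon and starts CASGD. Of 20 Trbv genes with a readable start, 14 began CASS and 2 of these began CASSD. The other CASS genes can reach CASSD through the junction, because each D segment has a reading frame that begins with aspartate.
Trbd1, chr6:41533201-41533212: gggacagggggc
Trbd2, chr6:41542163-41542176: gggactgggggggc
In that frame, the third, Trbd1 reads DRG and Trbd2 reads DWGG. The table holds no V gene and no nucleotide sequence, so how many class CDR3s came from such junctions was not tested directly. A further 996 entries began with CASSD but had another ending, 14.6% of all CASSD entries, and were outside the rule.

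The libraries differed in depth. TRB reads per tumour ranged from 5060 to 407156, with group medians of 56219.5 in Vehicle, 199348 in aPD-1 and 135135 in AC484 tumours. Reads carry no molecular identifiers, so binomial intervals cover counting error only. Index primer sets went with treatment: set 1 held 12 Vehicle tumours, set 2 held 2 Vehicle and 10 aPD-1, set 3 held 5 aPD-1 and 7 AC484, and set 4 held 8 AC484. No set held both Vehicle and AC484 tumours. Vehicle 5 and Vehicle 6 contained 2 and 4 class CDR3s, so their percentages rest on very few sequences, and only 4 Vehicle tumours had at least 50 class CDR3s, against 12 aPD-1 and 15 AC484 tumours. Nothing in the labels says whether tumours were implanted or treated on separate days.

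More distinct class CDR3s were found in AC484 tumours than in either other group once every tumour was drawn to 5060 TRB reads. Vehicle tumours then held between 2 and 50 distinct class CDR3s, with a median of 19.95. The aPD-1 tumours held between 17.2 and 60.8, with a median of 41.3. The AC484 tumours held between 30.1 and 105.8, with a median of 52.7. The 3 groups overlapped, but all 15 AC484 tumours lay above the Vehicle median and 12 of 15 lay above the aPD-1 median. The means were 24.1 ± 17.96 (SD, n = 14) in Vehicle, 38.9 ± 11.8 (SD, n = 15) in aPD-1 and 54.1 ± 17.7 (SD, n = 15) in AC484. AC484 exceeded Vehicle by 30.03 CDR3s (95% interval 16.4 to 43.6, two-sided permutation test, p = 3.0e-05, adjusted p = 0.00063 over 21 tests). AC484 exceeded aPD-1 by 15.3 (3.95 to 26.6, permutation adjusted p = 0.029), and aPD-1 exceeded Vehicle by 14.7 (2.96 to 26.5, permutation adjusted p = 0.052). Within index sets, the first difference was 36.4 and the second 18.03 (adjusted p = 0.13 and 0.18 by permutation within sets). The first of these is a sum over sets 2 and 3 and assumes that set effects add. Without aPD-1 replicate 12 the adjusted permutation p of AC484 against aPD-1 was 0.052, and with counts scaled and rounded in place of drawing the differences were 12.5 and 0.933, with neither called. This excess cannot be read as a trait of the class. Distinct TRB CDR3s of any start, as deposited, had medians of 483 in Vehicle, 2075 in aPD-1 and 2985 in AC484 tumours. The class percentage of distinct TRB CDR3s at 5060 reads averaged 5.85%, 5.89% and 6.36%, with no difference called.

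**Figure D1:**
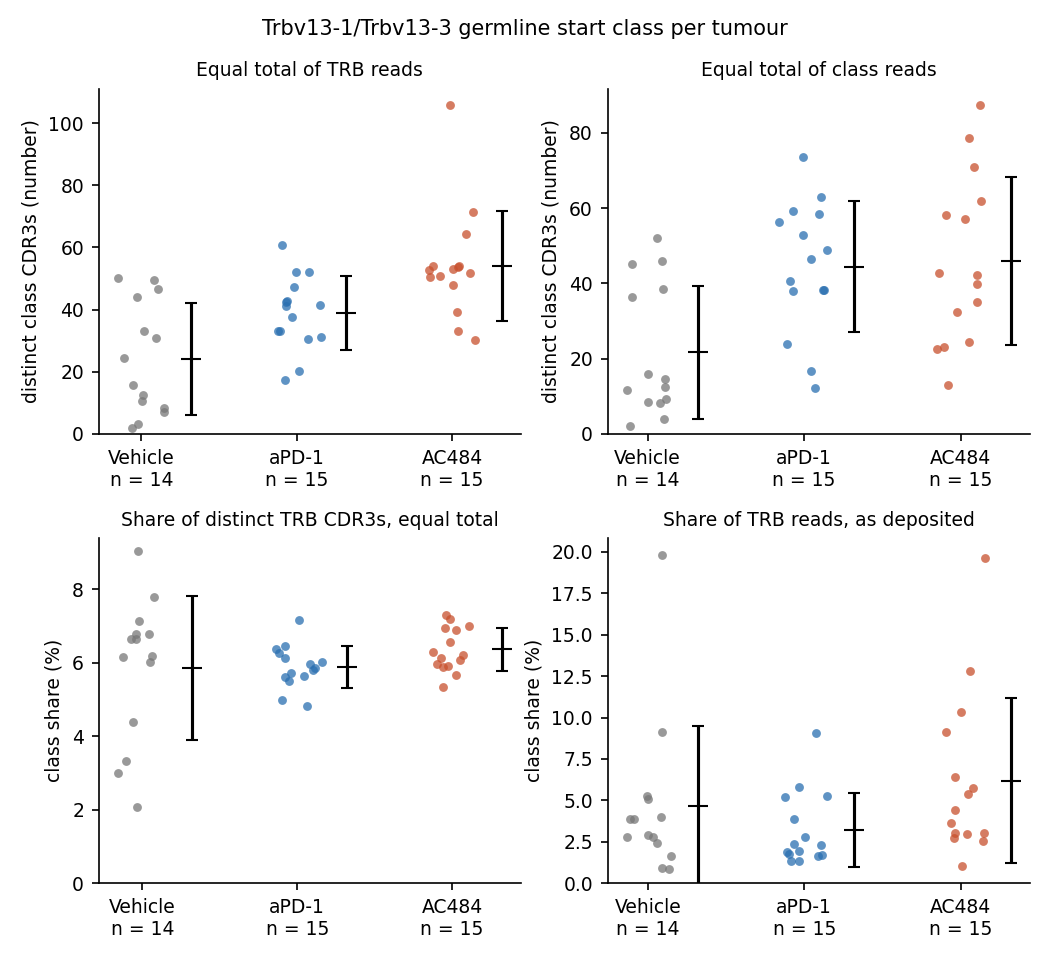
Points are single tumours, and bars give the group mean with its SD (Vehicle n = 14, aPD-1 n = 15, AC484 n = 15). The panels plot distinct class CDR3s at 5060 TRB reads, distinct class CDR3s at 170 class reads, the class percentage of distinct TRB CDR3s at 5060 reads, and the class percentage of TRB reads as deposited. The number of class CDR3s at 5060 reads is highest in AC484, while the class percentage overlaps widely between the groups.

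The class percentage of distinct TRB CDR3s was not called different between any 2 groups at an equal total. At 5060 TRB reads it made up 5.85 ± 1.96% of distinct TRB CDR3s in Vehicle (SD, n = 14), 5.89 ± 0.579% in aPD-1 (SD, n = 15) and 6.36 ± 0.590% in AC484 tumours (SD, n = 15). The Vehicle values ran from 2.08% in Vehicle 5 to 9.04% in Vehicle 8, so both ends of the whole range were Vehicle tumours. AC484 values ran from 5.35% to 7.30% and aPD-1 values from 4.83% to 7.17%. AC484 was above aPD-1 by 0.471 percentage points (95% interval 0.0340 to 0.909, permutation adjusted p = 0.085), with 13 of 15 AC484 tumours above the aPD-1 median. The difference from Vehicle was 0.507 points (-0.653 to 1.67, permutation adjusted p = 0.49).

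A fit across all 5-residue TRB starts gave a larger contrast between AC484 and aPD-1. It tested the number of distinct CDR3s per start with edgeR's quasi-likelihood test, relative to all distinct TRB CDR3s of the tumour as deposited. CASSD was higher in AC484 than in aPD-1 tumours by 0.24 on the log2 scale (SE 0.067, edgeR adjusted p = 0.023). It was the only start called in that contrast, where the share of starts called was 1.69% of 59. As deposited the class percentage had a median of 6.13% in AC484 tumours (5.02% to 8.02%) and of 5.26% in aPD-1 tumours (4.01% to 6.11%), and these ranges overlapped. With the index set as a block, an alternative chosen after seeing the data, the difference was 0.21 and was not called (edgeR adjusted p = 0.56). Within index set 3 alone the class percentage at 5060 reads was 0.823 points higher in the 7 AC484 than in the 5 aPD-1 tumours (exact permutation p = 0.027, adjusted p = 0.18). Leaving out AC484 replicate 7 (log2 difference 0.19, adjusted p = 0.35) or AC484 replicate 9 (0.22, adjusted p = 0.065) ended the edgeR call.

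Against Vehicle, CASSD was not called. The log2 difference was 0.18 for AC484 (SE 0.087, edgeR adjusted p = 0.28), where 3.39% of starts were called, and -0.06 for aPD-1 (SE 0.092, edgeR adjusted p = 0.83), where 0% were called. For aPD-1 against Vehicle 6 of 59 starts had an unadjusted edgeR p under 0.05, and DESeq2 called 0. These values are read against the medians over all starts, 0.15 for AC484 and 0.12 for aPD-1 against Vehicle, because the TMM scaling factors of edgeR shifted contrasts with the shallow Vehicle tumours upwards in simulated data. Without TMM the log2 differences were 0.046 for AC484 (edgeR adjusted p = 0.84) and -0.20 for aPD-1 (edgeR adjusted p = 0.30), and neither was called.

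Class reads did not separate the groups. They were 4.67 ± 4.85% of TRB reads in Vehicle (SD, n = 14), 3.21 ± 2.21% in aPD-1 (SD, n = 15) and 6.19 ± 4.96% in AC484 tumours (SD, n = 15). The lowest, median and highest values were 0.830%, 3.38% and 19.8% in Vehicle, 1.34%, 2.28% and 9.07% in aPD-1, and 1.03%, 4.42% and 19.7% in AC484 tumours. AC484 exceeded aPD-1 by 2.98 points (95% interval 0.0497 to 5.91, permutation adjusted p = 0.084), and 14 of 15 AC484 tumours lay above the aPD-1 median. AC484 differed from Vehicle by 1.53 points (-2.21 to 5.26, permutation adjusted p = 0.55), by 0.563 points without AC484 replicate 9 and by 2.69 without Vehicle replicate 14. Single large CDR3s set the upper ends. The highest Vehicle value was Vehicle 14 and the highest AC484 value AC484 9, and in each of them 1 CDR3 held most of the class reads (94.4% and 91.2%).

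Within the class, reads were most concentrated in Vehicle tumours, which also held the fewest class CDR3s. The largest class CDR3 held 52.7 ± 24.0% of class reads in Vehicle (SD, n = 14), 28.1 ± 24.0% in aPD-1 (SD, n = 15) and 37.5 ± 20.8% in AC484 tumours (SD, n = 15). The share fell from Vehicle to aPD-1 by 24.6 points (95% interval 6.27 to 42.9 points lower, permutation adjusted p = 0.046), and 13 of 15 aPD-1 tumours lay below the Vehicle median. AC484 differed from Vehicle by -15.2 points (-32.4 to 2.01, permutation adjusted p = 0.17). Each tumour was also drawn to 170 class reads. There were then 21.7 ± 17.7 distinct class CDR3s in Vehicle (SD, n = 14), 44.4 ± 17.3 in aPD-1 (SD, n = 15) and 46.0 ± 22.2 in AC484 tumours (SD, n = 15). AC484 exceeded Vehicle by 24.2 (8.95 to 39.5, permutation adjusted p = 0.023) and aPD-1 exceeded Vehicle by 22.7 (9.35 to 36.0, permutation adjusted p = 0.023). AC484 and aPD-1 differed by 1.51 (-13.4 to 16.5, permutation adjusted p = 0.93). The number of class CDR3s in a tumour bounds both the largest share and the number drawn. That number ran from 2 to 96 in Vehicle, 28 to 181 in aPD-1 and 99 to 621 in AC484 tumours. Neither measure was made for other TRB CDR3s, so the differences cannot be read as a trait of the class. The call on the largest CDR3 was lost in 21 of 29 fits that each left out 1 tumour. Within index sets the differences were larger (aPD-1 against Vehicle -37.7 points and 32.6 CDR3s, AC484 against Vehicle 41.7 CDR3s). Their unadjusted p by permutation within sets was 0.061, 0.061 and 0.040, and none was called after adjustment. Those contrasts rest on 2 Vehicle tumours against 10 aPD-1 tumours, and 1 of the 2 is Vehicle 14. With so few tumours the absence of a call says little.

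J genes contribute the end of the loop, and those of the Trbj2 cluster ended about 2 in 3 class CDR3s of a tumour. This was close to the general share, since Trbj2 genes ended 67.1% of class entries and 65.7% of all TRB entries. The Trbj2 share of distinct class CDR3s was 71.8 ± 12.6% in Vehicle (SD, n = 14), 66.4 ± 6.25% in aPD-1 (SD, n = 15) and 67.5 ± 6.05% in AC484 tumours (SD, n = 15). The differences were 1.08 points between AC484 and aPD-1 (95% interval -3.52 to 5.69, permutation adjusted p = 0.74), -4.29 between AC484 and Vehicle (-12.1 to 3.47, adjusted p = 0.43) and -5.37 between aPD-1 and Vehicle (-13.2 to 2.43, adjusted p = 0.29). Over all class entries the single J genes ranged from 2.46% for Trbj1-5 to 17.8% for Trbj2-7, and Trbj2-1 followed with 15.1%. In the other TRB entries Trbj1-5 stood at 2.72%, Trbj2-7 at 15.3% and Trbj2-1 at 14.5%. By reads the leading J gene was Trbj2-3, with 25.4% of class reads against 9.73% of class entries, since the largest CDR3s of the Vehicle and of the aPD-1 group both ended in it.

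Compared with the other TRB CDR3s of the same tumour, the class used 1 of 12 J genes differently when all 44 tumours were weighed equally. Trbj1-4 ended 5.48% of class CDR3s and 7.14% of the others, a difference of -1.66 points (95% interval -2.74 to -0.584, lower in 30 of 44 tumours, sign-flip permutation adjusted p = 0.041 over 14 tests). This call was lost at an equal TRB total (-1.59 points, permutation adjusted p = 0.18), without single-read CDR3s (-1.59, adjusted p = 0.21), against other CASS starts alone (-1.42, adjusted p = 0.16) and in each treatment group alone. For the other 11 J genes the mean differences lay between -1.41 points (Trbj2-5) and 2.95 points (Trbj2-4). The latter value rested on tumours with very few class CDR3s, among them Vehicle 5, in which both class CDR3s ended in Trbj2-4. In the 31 tumours with at least 50 class CDR3s, a selection made after seeing the data, 3 J genes passed the threshold. Trbj2-7 ended 17.8 ± 3.32% of class CDR3s against 15.4 ± 0.802% of the others (SD, n = 31, higher in 25 tumours, difference 2.37 points, permutation adjusted p = 0.0020). Trbj2-5 ended 10.6 ± 3.01% against 12.5 ± 0.796% (SD, n = 31, lower in 23 tumours, difference -1.82 points, permutation adjusted p = 0.016). Trbj1-4 ended 5.87 ± 2.01% against 6.98 ± 0.544% (SD, n = 31, lower in 22 tumours). The Trbj2-7 difference had the opposite sign in the 14 Vehicle tumours (-1.78 points) from that in the aPD-1 (2.58) and AC484 tumours (2.96), and a permutation test did not separate Vehicle from AC484 after adjustment (adjusted p = 0.10).

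**Figure D2:**
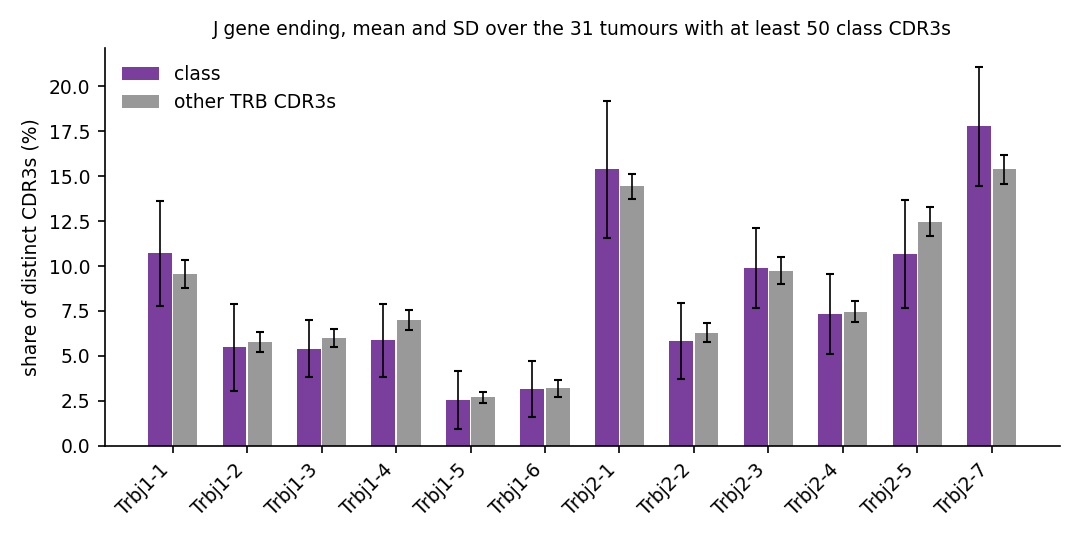
Bars give the mean percentage of distinct CDR3s that ended in each of 12 J genes, for the class and for the other TRB CDR3s of the same tumours, with SD over the 31 tumours with at least 50 class CDR3s. Trbj2-7 stands higher in the class (17.8% against 15.4%) and Trbj2-5 lower (10.6% against 12.5%).

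Treatment was also tested for each pair of start and J gene, in 1 edgeR fit over 177 pairs. Between AC484 and aPD-1, CASSD with Trbj2-1 was the 1 of 12 class pairs called, higher in AC484 by 0.44 on the log2 scale (SE 0.12, edgeR adjusted p = 0.035). The share of pairs called in that contrast was 1.13%. The start CASSD alone was higher by 0.24 in the same contrast. Trbj2-1 use by TRB CDR3s outside the class was not tested between treatments. A change in this pairing can therefore not be told apart from changes in the start or in the J gene. The call was lost with DESeq2 (0.46, DESeq2 adjusted p = 0.098), with the replicate block (0.45, edgeR adjusted p = 0.065) and with the index set as a block (0.18, edgeR adjusted p = 0.90). The 12 class pairs had a median log2 difference of 0.18, with 10 of 12 above 0, against a median of -0.0046 over all pairs. These pairs divide the same CASSD numbers that the fit of starts tested, so their common direction is not separate evidence. No class pair was called against Vehicle, where the share of pairs called was 2.26% for AC484 and 0% for aPD-1 (28 of 177 with an unadjusted edgeR p under 0.05, 0 by DESeq2).

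The class CDR3s were between 9 and 20 residues long, and those of 14 (29.1%) and 15 residues (28.7%) were the most common. Mean length within a tumour was 14.19 residues in the class and 14.09 in the other TRB CDR3s, longer in the class in 32 of 44 tumours (difference 0.101, 95% interval 0.000489 to 0.202, permutation adjusted p = 0.23). Against other CASS starts alone the difference was -0.0116. The class took a smaller share of reads than of distinct CDR3s in 33 of 44 tumours, 4.69% against 5.70% on average (difference -1.003 points, -2.23 to 0.229, permutation adjusted p = 0.23).

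Residue 6 is the first that neither germline V gene fixes in full. An intact V end leaves a G as the first base of its codon, which allows alanine, aspartate, glutamate, glycine or valine, and 48.4% of class entries had 1 of these 5. Alanine was the most frequent, with 23.0% of entries, followed by arginine with 14.8%, glycine with 11.5%, tryptophan with 9.37% and valine with 6.10%. The alanine share of distinct class CDR3s was 21.6 ± 11.2% in Vehicle (SD, n = 14), 24.0 ± 3.50% in aPD-1 (SD, n = 15) and 21.4 ± 2.39% in AC484 tumours (SD, n = 15). The difference between AC484 and aPD-1 was -2.54 points (95% interval -4.79 to -0.286, permutation adjusted p = 0.083).

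The Trbv13-2 start CASGD served as a comparison, since no other readable Trbv gene has it and its germline V end leaves the same bases after the fourth codon. Alanine followed CASGD in 36.1 ± 3.84% of distinct CDR3s and CASSD in 22.4 ± 6.69% (SD, n = 44), and it was lower after CASSD in 43 of 44 tumours. The difference was -13.7 points (95% interval -16.0 to -11.4, sign-flip permutation adjusted p = 2.5e-05 over 5 residues, chosen after seeing the data). Arginine showed the opposite pattern, with 14.5 ± 5.58% after CASSD and 7.75 ± 4.17% after CASGD (SD, n = 44), higher after CASSD in 40 tumours and by 6.70 points (4.75 to 8.64, permutation adjusted p = 2.5e-05). These p-values are the smallest that 100000 resamples and 5 tests can give with 2 of them tied. Glycine differed by 1.45 points (-0.573 to 3.47), tryptophan by 0.492 (-0.985 to 1.97) and valine by -0.482 (-1.90 to 0.937), and none of these was called over the 44 tumours.

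**Figure D3:**
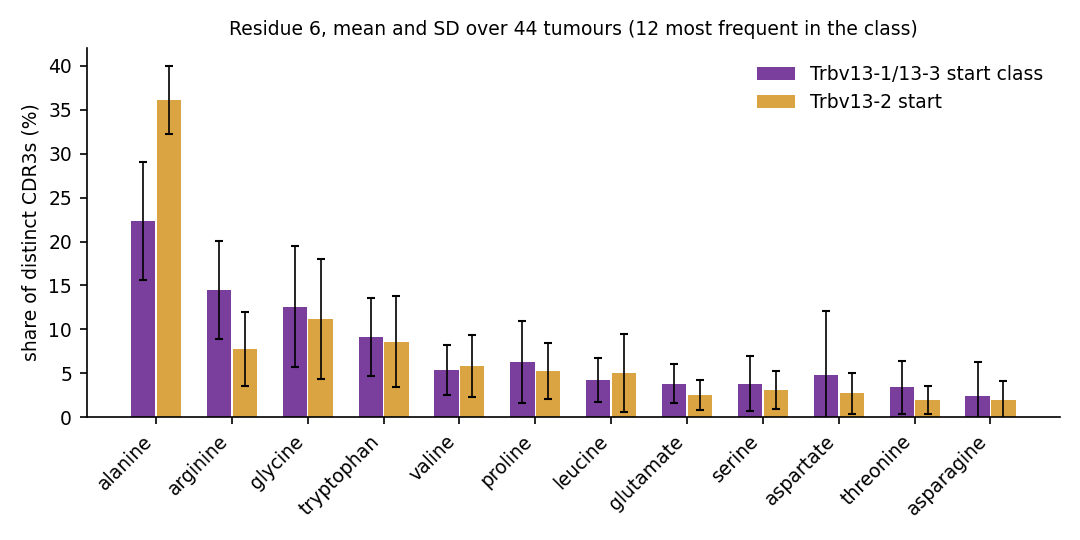
Bars give the mean percentage of distinct CDR3s with each residue at position 6, with SD over 44 tumours, for the class and for CDR3s with the Trbv13-2 start; the 12 residues most frequent in the class are shown. Alanine is lower (22.4% against 36.1%) and arginine higher (14.5% against 7.75%) in the class.

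CDR3s that went on as either D segment reads in its aspartate frame paired differently with the J clusters. CASSDWG, the Trbd2 reading, began 385 class entries in 41 tumours, and 361 of these ended in a Trbj2 gene, which is 93.8%. CASSDRG, the Trbd1 reading, began 303 entries in 40 tumours, of which 167 ended in a Trbj2 gene, 55.1%. In all remaining class entries the Trbj2 share was 65.8%. Trbd2 lies downstream of the Trbj1 cluster and ordinarily joins only Trbj2 genes, whereas Trbd1 can join both clusters. In the 21 tumours with at least 5 entries of each kind, the Trbj2 share was 93.4 ± 6.403% after CASSDWG and 58.1 ± 15.8% after CASSDRG (SD, n = 21). It was higher after CASSDWG in all 21 tumours, by 35.3 points (95% interval 27.4 to 43.3, sign-flip permutation p = 1e-05, the smallest this test can give, chosen after seeing the data). The 24 CASSDWG entries with a Trbj1 ending were led by Trbj1-3, with 10 entries.

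**Figure D4:**
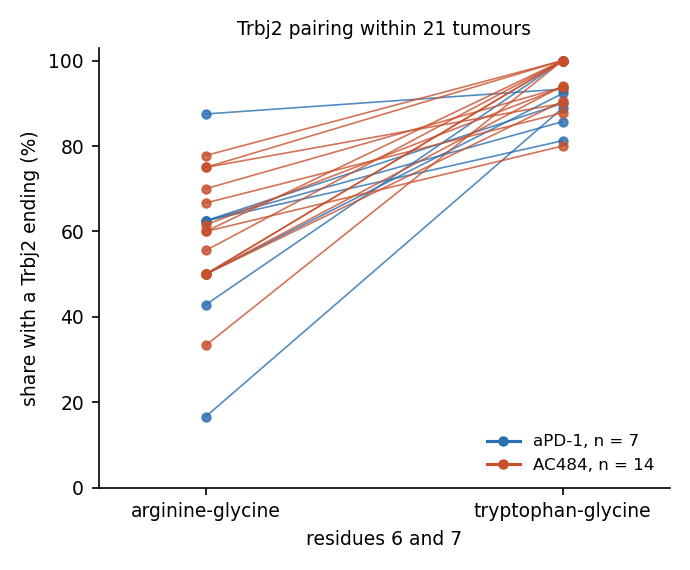
Each line joins the percentage of entries with a Trbj2 ending after arginine-glycine and after tryptophan-glycine at residues 6 and 7 in 1 of 21 tumours (7 aPD-1, 14 AC484; no Vehicle tumour had 5 of each). Every line rises, with means of 58.1% and 93.4%.

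Most class CDR3s were private. Of the 4534, 3854 were found in 1 tumour, 680 in at least 2, 71 in at least 5 and 10 in at least 10. The share found in at least 2 tumours was 15.0%, against 15.0% for CASGD, 15.7% for CASSQ, the start of Trbv2, Trbv5 and Trbv21, and 15.2% for all TRB CDR3s. Of the 680 shared CDR3s 254 were shared within a single treatment, 367 across 2 treatments and 59 across all 3. This split was not made for other TRB CDR3s, so it cannot be read as a trait of the class. The groups also held unequal numbers of class entries, 527 in Vehicle, 1631 in aPD-1 and 3690 in AC484. Shared CDR3s were shorter, with a mean of 13.6 ± 1.29 residues (SD over 680 CDR3s) against 14.6 ± 1.298 (SD over 3854 CDR3s) for private ones, and Trbj2-7 ended 20.3% of them against 15.5%.

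The CDR3s found in the most tumours were mostly short. Of the 5 leading ones, 3 are shown as examples of what was shared, in single-letter residues.
Found in 17 tumours, Trbj2-7: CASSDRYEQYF
Found in 15 tumours, Trbj2-7: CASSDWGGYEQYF
Found in 13 tumours, Trbj2-7: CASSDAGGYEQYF
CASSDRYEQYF occurred in 1 Vehicle, 7 aPD-1 and 9 AC484 tumours, with 1 to 169 reads and at most 0.0792% of TRB reads. No class CDR3 was found in more AC484 tumours, and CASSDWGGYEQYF was found in as many. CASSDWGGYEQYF, which holds the full aspartate frame of Trbd2, occurred in 3 Vehicle, 3 aPD-1 and 9 AC484 tumours with 1 to 100 reads. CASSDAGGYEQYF occurred in 3 Vehicle, 3 aPD-1 and 7 AC484 tumours with 1 to 39 reads. A CDR3 of 14 residues with glycine at position 6 and a Trbj1-1 ending was found in 14 tumours, 1 Vehicle, 7 aPD-1 and 6 AC484, with 1 to 82 reads. The highest share of any of these 4 was 0.103% of TRB reads, for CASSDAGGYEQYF in Vehicle 8, where it rested on 6 reads. Of the 10 CDR3s found in at least 10 tumours, 4 began CASSDWG, and each of those 4 stayed in all its tumours when counts under 1% of a CDR3's largest count were left out. By the same step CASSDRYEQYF remained in 14 of its 17 tumours, while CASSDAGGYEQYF and the CDR3 with the Trbj1-1 ending kept all of theirs.

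The remaining one of the 5 leading CDR3s differed from the others in its read count. It had 16 residues with alanine at position 6 and a Trbj2-3 ending, and it was also the class CDR3 with the largest share in the Vehicle group. In Vehicle 14 it had 35235 reads, 18.7% of the TRB reads (Wilson 95% interval 18.5% to 18.9%). It was found in 12 other tumours with 154 reads in all, between 1 and 100 each, and 9 of those 12 shared index set 2 with Vehicle 14. It occurred in 9 aPD-1 tumours, the most of any class CDR3 in that group. With counts under 1% of a CDR3's largest count left out, it remained in 1 tumour. A CDR3 of 17 residues with a Trbj2-2 ending was found in 5 Vehicle tumours, the most in that group, and likewise remained in 1 after that step. Whether low counts of such CDR3s came from neighbouring libraries was not tested.

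**Figure D5:**
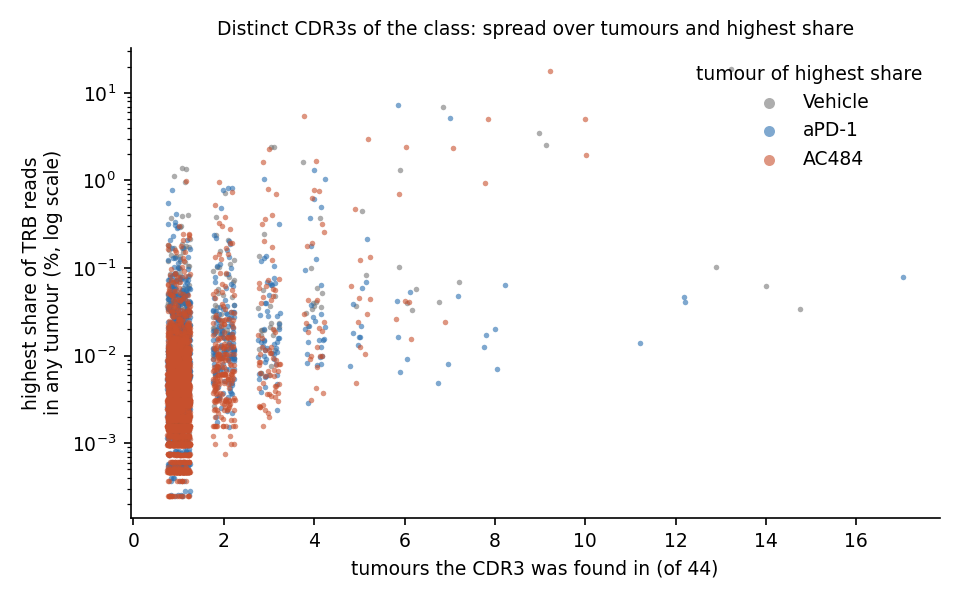
Each point is 1 of 4534 class CDR3s, plotted by the number of tumours it was found in (x, spread slightly sideways) and its highest percentage of TRB reads in any tumour (y, log scale), coloured by the treatment of that tumour. Of the 10 CDR3s found in at least 10 tumours, 3 exceed 1% and the others reach at most 0.103%; the point at 13 tumours and 18.7% is the large CDR3 of Vehicle 14.

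Sharing between tumours of a group was compared per 10000 pairs of CDR3s. This rate divides by the numbers of CDR3s in the 2 tumours but does not make those numbers equal. Of 10000 pairs of class CDR3s from different tumours of a group, 11.5 were identical in Vehicle, 2.68 in aPD-1 and 1.85 in AC484. The difference from Vehicle was -9.65 for AC484 (permutation of group labels, adjusted p = 0.00030, from the smallest p that 10000 resamples can give) and -8.82 for aPD-1 (adjusted p = 0.00060), while AC484 and aPD-1 differed by -0.826 (adjusted p = 0.65). These Vehicle values rested on tumours with few class CDR3s. Over the 31 tumours with at least 50, the values were 1.93 in Vehicle, 2.75 in aPD-1 and 1.85 in AC484, and no difference was called (permutation adjusted p = 0.91 for AC484 and 0.37 for aPD-1 against Vehicle, and 0.12 between them). With low counts of CDR3s abundant elsewhere left out, Vehicle was at 3.31 (adjusted p = 0.095 against AC484 and 0.15 against aPD-1). Without Vehicle replicate 2, which held 11 class CDR3s, the differences from Vehicle were -5.17 for AC484 and -4.34 for aPD-1, and without Vehicle replicate 6 the latter was -5.90. Over all pairs of tumours, class CDR3s were identical in 6.49 of 10000 pairs within an index set and in 2.44 across sets, where CASGD gave 4.59 and 3.06 and CASSQ gave 13.3 and 4.22. Set 1 held 12 Vehicle tumours and no others, so index set, treatment and small numbers of CDR3s cannot be told apart here. These rates were not taken over tumours with at least 50 class CDR3s alone.

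Some CDR3s of the class held at least 1% of a tumour's TRB reads. There were 29 such cases in 22 of 44 tumours, 12 in 9 of 14 Vehicle tumours, 5 in 5 of 15 aPD-1 tumours and 12 in 8 of 15 AC484 tumours. TRB CDR3s of any start at or above 1% were counted only in AC484 9, where there were 15, 1 of them of the class. The counts therefore do not say whether the class expanded more or less often than other TRB CDR3s. In shallow libraries few reads reach 1%, as in Vehicle 5, where the 2 cases had 119 and 82 reads. In no tumour was the largest TRB CDR3 a class member, and the best-placed class CDR3 had a median rank of 10.5 in Vehicle, 27 in aPD-1 and 11 in AC484 tumours. Of the 29 cases, 2 had alanine at residue 6, 6 had threonine, 5 valine, and 4 each arginine and proline. Among all class entries alanine stood at 23.0% and threonine at 3.71%. By class reads alanine stood at 26.5% and threonine at 6.44%, and the 2 alanine cases include the largest of all, in Vehicle 14. The 29 cases are 27 distinct CDR3s, and the difference in residue 6 was not tested.

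The expanded CDR3s of at most 14 residues that held at least 3.5% of TRB reads are printed, for comparison with those found in the most tumours.
AC484 9 and AC484 8, Trbj2-4: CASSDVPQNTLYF
aPD-1 6, Trbj1-4: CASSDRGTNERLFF
AC484 3, Trbj2-7: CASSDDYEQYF
AC484 3, Trbj1-2: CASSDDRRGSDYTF
Vehicle 4, Trbj2-7: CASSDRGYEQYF
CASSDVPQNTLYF was the largest class CDR3 of the AC484 group, with 5912 reads or 17.9% of TRB reads in AC484 9 (Wilson 95% interval 17.5% to 18.4%). It also had 4204 reads, 4.12% (4.00% to 4.24%), in AC484 8, and it was found in 7 further tumours. Of the 8 tumours besides AC484 9, 6 shared index set 4 with it. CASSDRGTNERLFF held 5.14% in aPD-1 6 (5.06% to 5.22%). In AC484 3, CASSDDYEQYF held 5.10% (4.98% to 5.22%) and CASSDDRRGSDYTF 5.04% (4.93% to 5.16%), so this tumour had a pair of similarly large class CDR3s. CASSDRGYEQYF held 3.52% in Vehicle 4 (3.39% to 3.66%). The largest class CDR3 of the aPD-1 group, with 16 residues and a Trbj2-3 ending, held 7.25% in aPD-1 10 (7.14% to 7.37%).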

How the data were processed

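TCR α and β transcripts from 44 tumours were amplified with a SMARTer kit, and the authors assembled reads into amino acid clonotypes with MiXCR; the submitters' processing notes name mm10. Deposited were, for each tumour, whole-number counts of reads per CDR3 with both chains in 1 list, without an equal total, unique molecular identifiers, V genes or nucleotides. All 170818 entries were used. The class, J endings, measures and named items were chosen with earlier results of these data known. Each of the 12 endings was found in 1 germline J gene of GRCm38.

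Reads of each tumour were drawn 100 times without replacement to 5060 TRB reads or 170 class reads, the smallest totals. Differences between group means were tested by two-sided permutation (100000 resamples, 10000 for sharing; smallest p 1e-05), class and other CDR3s by sign flips within tumours, with Benjamini-Hochberg adjustment over 21, 14, 5 or 3 tests and a threshold of 0.05. Intervals of 95% used the t distribution. Each alternative setting of these tests was adjusted over the same number of tests. Alternatives of the edgeR fits were adjusted over the features that each fit kept, which varied with the filter and with single reads. The treatment test of class minus rest was adjusted over its own set of tests. Tumours are the replicates, and the labels do not say how they were batched. Numbers of distinct CDR3s per start, and per start and J pair, were tested with edgeR 4.0.16 quasi-likelihood fits with TMM, for features with at least 100 over all tumours (59 and 177), with DESeq2 1.42.0 as an alternative. The fits and permutation tests were first tested on simulated data.

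Named CDR3s were the 5 found in most tumours and, per group, those with the largest share and in most tumours. Expanded CDR3s, residue 6 and D frame tests were added after the values were seen. Software was Python 3.11.15, NumPy 2.4.6, SciPy 1.17.1, pandas 2.3.3 and R 4.3.3.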

Additional observations from a re-analysis of the deposited data

Results flagged for a closer look

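Entries that began with CASSD but did not end in the full germline residues of a Trbj gene were outside the measurements above. There were 996 of them, in 42 of 44 tumours, with 32587 reads, 10.4% of all CASSD reads. They numbered 68 in Vehicle, 278 in aPD-1 and 650 in AC484 tumours. Matching the last 4 residues of the J endings took in 822 of them, and the AC484 excess over aPD-1 in the class percentage was then 0.586 points and passed the threshold (permutation adjusted p = 0.022; chosen after seeing the data).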

How the results depend on the processing

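Differences are given as first minus second group, in CDR3s, percentage points or log2 units. Without an equal total, distinct class CDR3s differed by 71.1 between aPD-1 and Vehicle and by 137.3 between AC484 and aPD-1, both now called; the class percentage of distinct CDR3s differed by 1.01 between AC484 and aPD-1, now called, and by -0.331 between aPD-1 and Vehicle, opposite in sign to the main value. With counts scaled and rounded, distinct CDR3s at the TRB total differed by 12.5 (AC484 and Vehicle) and 0.933 (AC484 and aPD-1), those at the class total by 7.24 (AC484 and Vehicle) and 21.4 (aPD-1 and Vehicle), and the largest CDR3's share by -22.7 (aPD-1 and Vehicle), none of them still called. Under that scaling the sign turned for the class percentage of distinct CDR3s (-0.0443 for AC484 and -0.111 for aPD-1, both against Vehicle), for the class total (-14.2, AC484 and aPD-1), for alanine (2.74 against Vehicle and 0.455 against aPD-1) and for Trbj2 (-1.43, AC484 and aPD-1). With both chains drawn to 1 total, distinct CDR3s differed by 9.13 (AC484 and aPD-1, not called) and 17.6 (aPD-1 and Vehicle, called). Student's t-test called the latter at 14.7.

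Without single-read CDR3s, distinct CDR3s differed by 10.3 between AC484 and aPD-1 (not called) and 17.8 between aPD-1 and Vehicle (called). The sign turned for the class percentage (-0.0172, aPD-1 and Vehicle), the class total (-1.02, AC484 and aPD-1), alanine (0.703, AC484 and Vehicle) and Trbj2 (-0.0940, AC484 and aPD-1). Trbj1-4 was at -1.59 and no longer called, so 0 J genes were. With counts under 1% of a CDR3's largest count left out, aPD-1 exceeded Vehicle by 14.3 (called). The class percentage then differed by -0.126 (aPD-1 and Vehicle). Sharing differed by -1.82 (AC484) and -1.40 (aPD-1) from Vehicle, not called. For CASSDA alone the numbers differed by 5.54 (AC484 and Vehicle) and 2.54 (AC484 and aPD-1), not called, the class percentage by -0.0210 (AC484 and aPD-1) and the reads by -0.761 (AC484 and Vehicle). CASSDA CDR3s were 0.539 residues longer than other TRB CDR3s (called), with Trbj1-4 at -0.0390, Trbj2-5 at 0.283 and 2 J genes called. With 4-residue J endings, aPD-1 exceeded Vehicle by 17.7 and AC484 exceeded aPD-1 by 0.586 points, both called.

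Whether replicate numbers pair the tumours was not tested. Over the 7 measures, same-numbered AC484 and Vehicle tumours correlated above 0.1 in 6 of 14 pairs (median r -0.0094). AC484 and aPD-1 tumours did so in 10 of 15 pairs (median r 0.33), and aPD-1 and Vehicle tumours in 6 of 14 (median r -0.048). With the replicate block, aPD-1 exceeded Vehicle by 15.2 CDR3s (called), the largest CDR3's share was -23.6 (not called), alanine differed by -2.54 between AC484 and aPD-1 (called), and edgeR called 1 start for aPD-1 against Vehicle and 1 pair for AC484 against aPD-1. Within index sets, distinct CDR3s differed by 36.4 and 18.03 (AC484 against Vehicle and aPD-1), those at the class total by 41.7 and 32.6 (AC484 and aPD-1 against Vehicle) and the largest CDR3's share by -37.7 (aPD-1 and Vehicle), none called. The sign turned for the class percentage (-0.640, aPD-1 and Vehicle), its reads (-5.60, AC484 and Vehicle) and Trbj2 (2.81, AC484 and Vehicle). For sharing, pairs within an index set gave -12.3 and -11.0 against Vehicle, and tumours with at least 50 class CDR3s gave -0.0835 and 0.820, none called.

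Trbj1-4 in the class minus the rest was -1.59 at an equal total, -2.07, -2.05 and -0.894 in Vehicle, aPD-1 and AC484 tumours alone, and -1.42 against CASS starts, none called. Trbj2-7 was 3.19 at an equal total and 2.96 in AC484 tumours (both called) and -1.78 in Vehicle tumours. Length differed by 0.129 in aPD-1 tumours (called) and -0.0116 against CASS starts, and reads against distinct CDR3s by -2.03 in aPD-1 tumours (called). The J genes called numbered 0 in Vehicle, 0 in aPD-1, 0 against CASS starts and 3 in tumours with at least 50 class CDR3s, where Trbj2-5 (-1.82), Trbj2-7 (2.37) and length (0.103) were called. With at least 50 of each start, glycine at residue 6 differed by 2.07 (called) and valine by 0.148.

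In the edgeR fits the starts called for AC484 against Vehicle numbered 1 without TMM, 5 without a filter, 0 without single reads and 0 with the index set as a block, against 2. For AC484 against aPD-1 they numbered 2 without single reads and 0 with the index set, against 1, and for aPD-1 against Vehicle 1 without a filter. Pairs called numbered 19 without a filter, 15 without single reads and 0 with the index set for AC484 against Vehicle, against 4. For AC484 against aPD-1 they numbered 1 without a filter and 0 with DESeq2, without single reads and with the index set, against 2, and for aPD-1 against Vehicle 2 without a filter. CASSD in AC484 against Vehicle was 0.37 without a filter (called) and -0.012 with the index set, and against aPD-1 0.21 with the index set (not called). CASSD with Trbj2-1 was -0.15 and -0.33 against Vehicle with the index set (AC484 and aPD-1) and -0.16 without TMM (aPD-1).

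Leaving out 1 tumour at a time moved distinct CDR3s from 11.6 to 16.995 (AC484 and aPD-1) and from 13.0 to 16.7 (aPD-1 and Vehicle), those at the class total from -1.45 to 3.86 (AC484 and aPD-1), the class percentage of distinct CDR3s from 0.396 to 0.563 (AC484 and aPD-1) and from -0.255 to 0.281 (aPD-1 and Vehicle), its reads from 2.02 to 3.40 (AC484 and aPD-1), the largest CDR3's share from -28.9 to -21.4 (aPD-1 and Vehicle), and alanine from -1.87 to 0.969 (AC484 and Vehicle) and from -3.21 to -2.21 (AC484 and aPD-1). Other differences that moved by over 1.5 times without 1 tumour, none called, were the class percentage of distinct CDR3s (0.217 to 0.752, AC484 and Vehicle), its reads (0.563 to 2.69, AC484 and Vehicle; -1.87 to -0.288, aPD-1 and Vehicle), the largest CDR3's share (5.55 to 13.7, AC484 and aPD-1), alanine (0.664 to 3.51, aPD-1 and Vehicle) and Trbj2 (0.250 to 2.10, AC484 and aPD-1; -5.97 to -2.12, AC484 and Vehicle; -7.05 to -3.20, aPD-1 and Vehicle). CASSD ranged from 0.19 to 0.28 (AC484 and aPD-1) and CASSD with Trbj2-1 from -0.018 to 0.21 (aPD-1 and Vehicle). Starts called ranged from 0 to 2 (AC484 and aPD-1) and 0 to 4 (aPD-1 and Vehicle), and pairs called from 0 to 20 (AC484 and Vehicle), 1 to 3 (AC484 and aPD-1) and 0 to 2 (aPD-1 and Vehicle). The cause was not tested for any of these changes. Vehicle libraries limit every contrast with Vehicle: 10 of 14 held fewer than 50 class CDR3s.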

Other observations

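The CDR3s with the largest share in AC484 9 recurred mainly in libraries of index set 4. Of its 15 TRB CDR3s at or above 1% of reads, 15 were also found in AC484 10, 14 in AC484 11, 10 each in AC484 12 and AC484 14, and 2 in AC484 8, which nevertheless held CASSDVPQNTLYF at 4.12%. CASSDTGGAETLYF exceeded 1% in tumours of different treatment and index set, with 1984 reads (1.94%) in AC484 8 and 51 reads (1.01%) in Vehicle 10, and was found in 10 tumours. The CASSQ start, 7.53% of TRB entries, took 16.7% of TRB reads, whereas the class took 4.46% of reads with 6.10% of entries and CASGD 2.02% with 5.14%.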
